A study of Mus musculus with 10 samples.

Results

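The 10 genes of necroptosis and pyroptosis (Ripk1, Ripk3, Mlkl, Zbp1, Casp8, Nlrp3, Pycard, Casp1, Casp4 and Gsdmd) were followed in mouse livers that had lost the histone variant H3.3 in hepatocytes. They were taken by gene name from the gene count table, which lists 55421 genes, and all 10 had at least 10 counts in all and entered the test with 22449 genes. The series holds poly(A) RNA-seq of 10 male livers, collected 3 weeks after a virus was injected at 6 months of age. KO livers (n = 4) carried floxed H3f3a and H3f3b, the 2 genes that encode H3.3, and received AAV8 Tbg-Cre, in which the hepatocyte promoter Tbg drives Cre. WT Cre controls (n = 3) were wildtype animals given AAV8 Tbg-Cre, so they share the virus with the KO livers. MCS controls (n = 3) carried the floxed H3f3a and H3f3b and received AAV8 Tbg-MCS, which brings no Cre, so they share the alleles. The genotype field of the floxed animals reads HIRA fl/fl, while the sample titles name H3f3a and H3f3b. Whole liver was measured, so the cells that Tbg-Cre does not target are in every value.

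Necroptosis and pyroptosis are forms of programmed cell death in which the plasma membrane is breached and the content of the cell spills out. In necroptosis, RIPK1 or the nucleic acid sensor ZBP1 engages the kinase RIPK3, which phosphorylates the pseudokinase MLKL, and MLKL then permeabilises the membrane. Caspase-8 cleaves RIPK1 and RIPK3 and so holds necroptosis back. In pyroptosis, a sensor such as NLRP3 recruits caspase-1 through the adaptor ASC (Pycard), caspase-1 or the lipopolysaccharide receptor caspase-11 (Casp4) cleaves gasdermin D, and the freed fragment forms membrane pores. In liver, inflammasome genes are best known from Kupffer cells and recruited myeloid cells, and hepatocytes are known to carry little RIPK3. The activity of these proteins depends on cleavage and phosphorylation, which RNA levels do not show.

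The 200 bases in front of the genes were read for 5 members that stand for both pathways, because several members moved together. The sequences are from RefSeq (build GRCm38.p6), are given 5′ to 3′ on the strand of the gene, and end next to the annotated gene (at the annotated RefSeq start for Mlkl). Capitals mark matches to the kappa B consensus, the only one of the 4 motifs searched that matched within these stretches. The stretches are chr14:55788866-55789065 (minus strand) for Ripk3, chr8:111338206-111338405 (minus) for Mlkl, chr11:59541368-59541567 (plus) for Nlrp3, chr9:5298317-5298516 (plus) for Casp1 and chr9:5308628-5308827 (plus) for Casp4.
Ripk3: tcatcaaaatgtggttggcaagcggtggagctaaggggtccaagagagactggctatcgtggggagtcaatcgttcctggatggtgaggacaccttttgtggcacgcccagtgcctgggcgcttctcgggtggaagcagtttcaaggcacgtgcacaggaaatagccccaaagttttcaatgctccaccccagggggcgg
Mlkl: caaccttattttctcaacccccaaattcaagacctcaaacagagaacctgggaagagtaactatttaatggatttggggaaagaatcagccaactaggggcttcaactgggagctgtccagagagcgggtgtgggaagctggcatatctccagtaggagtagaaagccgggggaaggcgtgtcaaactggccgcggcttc
Nlrp3: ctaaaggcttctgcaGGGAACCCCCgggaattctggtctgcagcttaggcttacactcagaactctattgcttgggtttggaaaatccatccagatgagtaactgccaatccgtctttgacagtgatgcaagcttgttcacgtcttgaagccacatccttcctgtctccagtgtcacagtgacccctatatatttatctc
Casp1: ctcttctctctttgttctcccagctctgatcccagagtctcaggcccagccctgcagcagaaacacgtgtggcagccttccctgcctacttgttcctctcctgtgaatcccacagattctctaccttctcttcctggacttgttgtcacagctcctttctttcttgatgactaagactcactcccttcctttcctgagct
Casp4: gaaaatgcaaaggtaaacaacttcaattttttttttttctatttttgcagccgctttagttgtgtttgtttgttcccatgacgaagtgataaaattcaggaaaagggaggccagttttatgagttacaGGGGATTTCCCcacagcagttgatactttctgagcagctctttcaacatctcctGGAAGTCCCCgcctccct

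RefSeq windows reaching from 250 bases before to 50 bases after a start were at hand for 8 of the 10 members (11 windows in all). Zbp1 and Gsdmd had no window, so no motif was searched for them. Nlrp3 and Casp4 held the kappa B consensus, a motif of NF-kappa B, which 8.46% of all 32851 windows held. In Casp4, 2 of the matches overlapped each other, and palindromic matches were read on both strands. The core of the interferon-stimulated response element (GAAANNGAA) was in the windows of Ripk1 and Ripk3, as in 8.56% of all windows. In Ripk3 the match (GAAAGGGAA) lay behind the start and is not in the stretch above. The GAS element of STAT factors (TTCNNNGAA) was in a window of Ripk1 only, against 8.30% of all windows, and its copy next to the start overlapped the interferon motif there. No member's window held TATAAA, which 13.6% of all windows held. A match in these letters is a description and no binding site.

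The deposited table held 14998426 to 26096141 counts per liver, with the lowest total in KO 1. H3f3a measured 59.9 to 63.7 CPM (counts scaled to a common library size with the TMM factors of edgeR) in the controls and 16.0 to 19.0 CPM in the KO livers. H3f3b measured 136 to 204 CPM in the controls and 39.8 to 56.7 CPM in the KO livers, and Hira measured 5.48 to 8.71 CPM and 6.26 to 6.68 CPM. Both H3.3 genes were thus low in the 4 libraries labelled as their knockout, while the Hira ranges overlapped. The columns of the 2 kinds of control were matched to their samples by the number in the library names, and every value for one kind of control rests on that match, while KO against the 6 controls does not.

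Of the 10 genes, 7 were higher in the KO livers than in the 6 controls at an edgeR adjusted p under 0.05, and none was lower. The 7 were Ripk3, Zbp1, Nlrp3, Pycard, Casp1, Casp4 and Gsdmd. Of all genes tested, 19.7% were called higher and 16.6% lower in that comparison. Of the 7, 5 (Zbp1, Nlrp3, Ripk3, Pycard and Casp4) also passed a log2 fold change of 1, which 12.9% of all genes did in the upward direction. In all 7, each KO liver was above each control, as in 12.5% of all genes. The median log2 fold change of the 10 genes was 1.07, beside -0.0030 over all genes tested. Ripk1, Mlkl and Casp8 did not pass the test. In whole tissue, fewer cells of a type and less RNA per cell cannot be told apart, and the same holds for more cells and more RNA per cell.

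**Figure D1:**
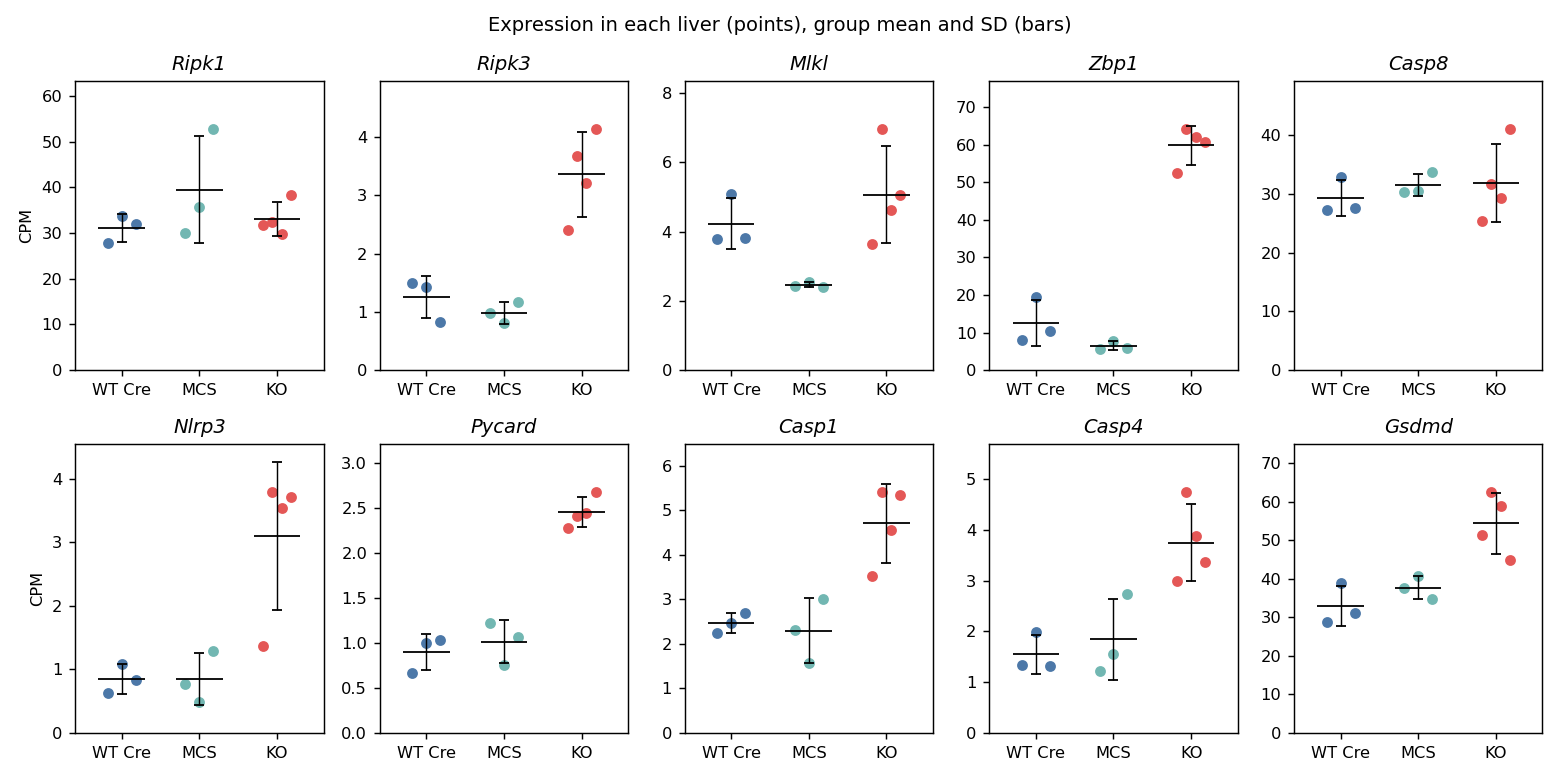
CPM of each gene in each liver (points) for the WT Cre, MCS and KO groups, with the group mean and SD as bars. KO livers lie above every control in 7 panels, and overlap the controls for Ripk1, Mlkl and Casp8.

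Ripk3, the kinase that assembles the necrosome with RIPK1 or ZBP1, was scarce in control livers and about 3.00 times as high in the KO livers by the ratio of the means. WT Cre livers measured 1.50, 1.43 and 0.834 CPM, MCS livers 0.977, 0.804 and 1.17 CPM, and KO livers 2.41, 3.68, 3.20 and 4.13 CPM. The lowest KO liver was above the highest control. KO livers were higher by 1.59 ± 0.23 log2 units (SE, edgeR adjusted p = 0.000178). The libraries held 18 to 36 Ripk3 counts in the controls and 37 to 108 in the KO livers.

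Zbp1, the sensor of Z-form nucleic acids and a gene known to respond to interferon, showed the largest difference of the 10. It measured 7.96, 19.6 and 10.3 CPM in WT Cre livers and 5.66, 7.86 and 6.04 CPM in MCS livers. KO livers measured 52.4, 64.1, 62.2 and 60.6 CPM. The KO livers lay close together and far above the controls, among which WT Cre 2 stood apart as the highest. The mean of 59.8 ± 5.15 CPM (SD, n = 4) was 6.25 times the control mean of 9.57 ± 5.17 CPM (SD, n = 6), a difference of 2.64 ± 0.31 log2 units (SE, edgeR adjusted p = 0.000156).

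Mlkl, which carries out the membrane breach of necroptosis, did not pass the test against the 6 controls. WT Cre livers measured 3.79, 5.07 and 3.81 CPM, MCS livers 2.44, 2.54 and 2.40 CPM, and KO livers 3.65, 6.96, 4.64 and 5.05 CPM. KO livers were all above the MCS livers but overlapped the WT Cre livers, with KO 1 below all 3 of them and KO 2 above all 3. The log2 fold change was 0.60 with a 95% interval of 0.08 to 1.12 (edgeR adjusted p = 0.0664). The call was near the threshold, and it passed without KO 1 (adjusted p = 0.0286), without WT Cre 2 (adjusted p = 0.0234), in DESeq2 (adjusted p = 0.0475) and with scaling by library size only (adjusted p = 0.0369). Over all 19 alternative fits its adjusted p ranged from 0.0234 to 0.245.

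Ripk1, the kinase that relays death receptor signals to survival, apoptosis or necroptosis, did not differ beyond the spread of the livers. It measured 27.8, 33.8 and 32.0 CPM in WT Cre livers, 30.1, 35.7 and 52.7 CPM in MCS livers and 31.8, 32.3, 29.7 and 38.3 CPM in KO livers. MCS 3 stood apart as the highest, and all KO livers lay within the control range. The log2 fold change was -0.10 with a 95% interval of -0.44 to 0.25 (edgeR adjusted p = 0.681), which corresponds to a fold between 0.738 and 1.19. Its direction turned without MCS 3, with scaling by library size only and in both fits on FPKM. Of the 8344 exon bases of Ripk1, 511 are also annotated to the pseudogene Gm17084 and 241 to Serpinb6a on the other strand. Serpinb6a was higher in KO livers (log2 fold change 0.82, adjusted p = 0.0012), and whether the counting used strand is not given in the sources used here, so the part of shared reads was not tested.

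Casp8, the initiator caspase that restrains the necrosome, did not pass the test either. WT Cre livers measured 27.3, 32.9 and 27.7 CPM, MCS livers 30.3, 30.5 and 33.7 CPM, and KO livers 25.3, 31.7, 29.3 and 41.0 CPM. KO livers held both the lowest value (KO 1) and the highest (KO 4) of the series. The log2 fold change was 0.07 with a 95% interval of -0.20 to 0.34 (edgeR adjusted p = 0.708), a fold between 0.871 and 1.26. The sign of this small difference changed without KO 4.

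Among the pyroptosis genes, the sensor Nlrp3 differed most. WT Cre livers measured 0.625, 1.08 and 0.834 CPM, MCS livers 0.773, 0.491 and 1.29 CPM, and KO livers 1.37, 3.80, 3.54 and 3.71 CPM. KO 1 stood apart from the other KO livers and was only just above the highest control, MCS 3. KO livers were higher by 1.89 ± 0.31 log2 units (SE, edgeR adjusted p = 0.000435). These values rest on 11 to 25 counts per library in the controls and on 21 to 97 in the KO livers.

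Pycard, which encodes the adaptor ASC that links sensors to caspase-1, measured 0.667, 0.998 and 1.03 CPM in WT Cre livers and 1.22, 0.759 and 1.06 CPM in MCS livers. The KO livers were tight at 2.28, 2.41, 2.44 and 2.68 CPM. Every KO liver was well above the controls, a difference of 1.36 ± 0.20 log2 units (SE, edgeR adjusted p = 0.000215). The control libraries held 16 to 30 counts and the KO libraries 35 to 70. An unclassified transcript on the other strand, Gm45205, covers 12.8% of the exon bases of Pycard.

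The 2 inflammatory caspases lie next to each other on chromosome 9 (mm10, GENCODE M21, plus strand), with Casp1 at chr9:5298517-5307265 and Casp4 at chr9:5308828-5336783. Casp1, which matures interleukin 1 beta and interleukin 18 and cleaves gasdermin D, measured 2.25, 2.47 and 2.70 CPM in WT Cre livers, 2.32, 1.56 and 3.02 CPM in MCS livers and 3.52, 5.42, 4.55 and 5.35 CPM in KO livers. It differed by 0.99 ± 0.19 log2 units (SE, edgeR adjusted p = 0.00154), just short of 1. Casp4, the mouse caspase-11 that binds bacterial lipopolysaccharide, measured 1.33, 2.00 and 1.31 CPM in WT Cre livers, 1.22, 1.56 and 2.74 CPM in MCS livers and 3.00, 4.74, 3.88 and 3.37 CPM in KO livers. Both caspases were lowest in KO 1 among the KO livers and highest in MCS 3 among the controls. Casp4 differed by 1.16 ± 0.24 log2 units (SE, edgeR adjusted p = 0.00211).

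Gsdmd, the pore-forming end of the pathway, was abundant already in the controls and differed least of the 7. WT Cre livers measured 28.9, 38.9 and 31.0 CPM, MCS livers 37.6, 40.7 and 34.7 CPM, and KO livers 51.5, 62.6, 59.0 and 44.9 CPM. The groups did not overlap, although KO 4 was near the highest control, MCS 2. The KO mean was 1.54 times the control mean, and KO livers were higher by 0.63 ± 0.12 log2 units (SE, edgeR adjusted p = 0.00138).

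**Figure D2:**
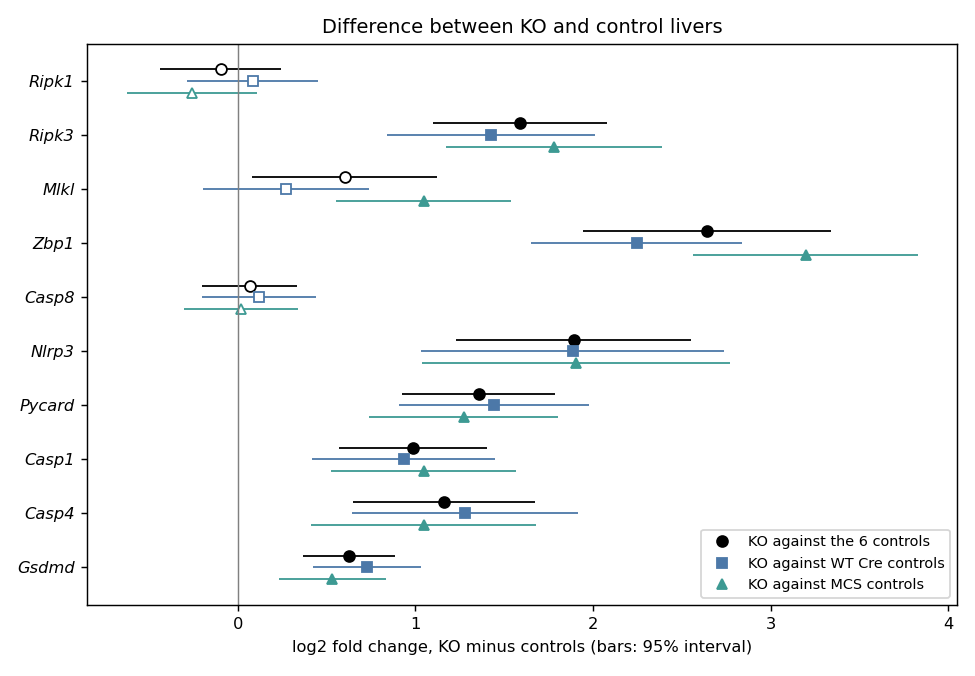
Log2 fold change of each gene with its 95% interval for KO against the 6 controls (black circles), the WT Cre controls (blue squares) and the MCS controls (green triangles); filled symbols passed an adjusted p of 0.05 and open ones did not. Mlkl is filled against the MCS controls only, and Zbp1 lies farthest to the right in all 3 comparisons.

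Set against each kind of control, 7 of the 10 genes were higher against WT Cre (15.3% of all genes were called higher) and 8 of the 10 against MCS (17.3% of all genes). The 7 were those called against the 6 controls, and Mlkl was the eighth, a difference of 1.05 ± 0.23 log2 units (SE, edgeR adjusted p = 0.00422) against MCS and 0.27 ± 0.22 (SE, adjusted p = 0.382) against WT Cre. Both comparisons share the KO livers. Casp4 against MCS lost its call without MCS 1 (adjusted p = 0.0804) or MCS 2 (adjusted p = 0.0728), and Casp1 against WT Cre without WT Cre 1 (adjusted p = 0.053).

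The difference between the 2 comparisons is the difference between the 2 kinds of control, and none of the 10 genes passed that test in edgeR, where 0.927% of all genes did in either direction. At an unadjusted p under 0.05 there were 2, Mlkl and Zbp1, where 10.7% of all genes had such a p. Mlkl was 0.78 ± 0.24 (log2, SE) higher in WT Cre than in MCS livers (edgeR adjusted p = 0.201) and Zbp1 0.95 ± 0.28 (adjusted p = 0.199). Both were above all MCS livers in all 3 WT Cre livers, as were 11% of all genes. Zbp1 was called higher in WT Cre livers by DESeq2 (adjusted p = 0.0346), so the kinds of control were not alike for Zbp1 in every test. Even so, the lowest KO liver (52.4 CPM) was above the highest WT Cre liver (19.6 CPM).

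To compare levels between genes, CPM was divided by the exon length of each gene in kilobases. In control livers Gsdmd led with 14.8 ± 1.94 CPM per kilobase (SD, n = 6), followed by Casp8 with 10.5 ± 0.903, Ripk1 with 4.23 ± 1.07 and Zbp1 with 2.71 ± 1.47. Casp1 (1.59 ± 0.328) and Mlkl (1.45 ± 0.466) came next, and Ripk3 (0.489 ± 0.130), Casp4 (0.456 ± 0.157), Pycard (0.252 ± 0.0541) and Nlrp3 (0.209 ± 0.0723) were lowest. On this scale the pyroptosis executioner Gsdmd was thus first and the necroptosis executioner Mlkl sixth, and the 4 lowest genes were all upstream ones. Ranges overlapped between the neighbours Ripk1 and Zbp1, Zbp1 and Casp1, Casp1 and Mlkl, Ripk3 and Casp4, and Pycard and Nlrp3, so these are not ordered beyond their spread.

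In KO livers Gsdmd remained first, at 22.9 ± 3.33 CPM per kilobase (SD, n = 4), and Zbp1 came second at 16.9 ± 1.46, above Casp8 at 11.0 ± 2.30. The ranges of Gsdmd, Zbp1 and Casp8 did not overlap between neighbours. From Ripk1 (3.96 ± 0.443) down, each gene overlapped the next: Casp1 at 3.15, Mlkl at 2.20, Ripk3 at 1.46, Casp4 at 1.01, Nlrp3 at 0.765 and Pycard at 0.646 CPM per kilobase. By the authors' FPKM the order was different in both groups. In controls Mlkl (1.39) was above Casp1 (1.23) and Casp4 (0.872) above Ripk3 (0.838). In KO livers Zbp1 (40.8) was above Gsdmd (33.9), Casp4 (2.43) above Ripk3 (2.37) and Mlkl (2.17), and Pycard (2.02) above Nlrp3 (0.648).

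**Figure D3:**
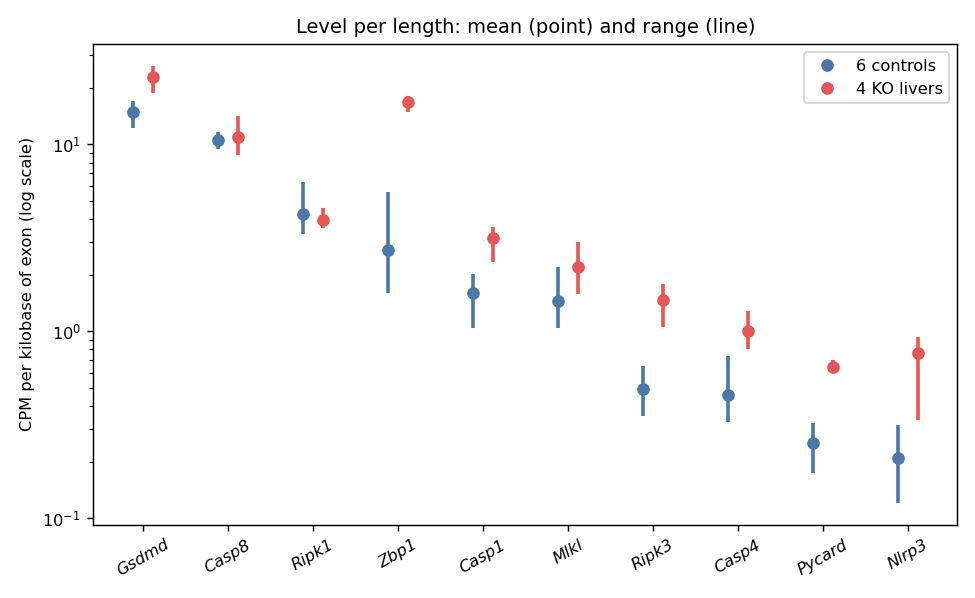
Mean level (points) and range (lines) in CPM per kilobase of exon on a log axis for the 6 controls and the 4 KO livers, with genes in the order of the control means. Zbp1 moves from 2.71 to 16.9 CPM per kilobase and passes Casp8.

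The 4 KO livers were not alike. KO 1 was the lowest KO liver for 8 of the 10 genes (all but Ripk1 and Gsdmd), KO 2 the highest for 6 and KO 4 for 4. KO 1 also had the lowest sum in 6 of 9 lists of cell type markers and the fewest counts. Without KO 1, 8 of the 10 genes were called higher against the 6 controls, when 22% of all genes were. Without MCS 3, the control with the highest Kupffer cell and neutrophil marker sums, 7 were, when 19.5% of all genes were.

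Genes around the 10 were taken from 5 lists. Of 28 tested genes of death receptor signalling, 7 were higher and 2 lower in KO livers than in the 6 controls, and the list's median log2 fold change was -0.0028. Of the 7, 5 were among the 9 ligands and receptors. The ligand genes Tnf (log2 fold change 2.58 ± 0.59, SE, edgeR adjusted p = 0.00513) and Fasl (1.86 ± 0.44, adjusted p = 0.00494) and the lipopolysaccharide receptor gene Tlr4 (1.54 ± 0.21, adjusted p = 0.000114) rose most. Tnf stood at 0.195 to 3.01 CPM in KO livers and at 0.0814 to 0.434 CPM in controls, so its groups overlapped, and Fasl rests on 49 counts over the 10 libraries. The 2 that fell encode parts of NF-kappa B signalling complexes, Rbck1 (-0.46 ± 0.08, adjusted p = 0.00104) of the linear ubiquitin ligase and Ikbkg (-0.33 ± 0.12, adjusted p = 0.0459) of the IKK complex. The call of Ikbkg was lost in 15 of 19 alternative fits, 7 of which left out a single library (adjusted p of 0.0034 to 0.683 over all 19).

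Of 25 tested inflammasome sensors and regulators, 16 were higher and 4 lower, with a median log2 fold change of 0.91. The share that was lower, 16%, was near the 16.6% of all genes. P2rx7, the ATP-gated channel upstream of NLRP3, rose by 3.11 ± 0.44 (log2, SE, edgeR adjusted p = 0.000536), from 2.01 to 4.25 CPM in controls to 5.54 to 36.5 CPM in KO livers. Mefv, which encodes the sensor pyrin, rose by 2.64 ± 0.47 (adjusted p = 0.00106) and the guanylate binding protein gene Gbp5 by 2.29 ± 0.39 (adjusted p = 0.000987). Both overlapped the controls. The lowest KO liver and highest control were 1.17 and 1.40 CPM for Mefv and 2.48 and 2.57 CPM for Gbp5. In contrast, 2 sensor genes that were well expressed in control livers went the other way. Nlrp12 fell from 18.9 to 68.6 CPM in controls to 3.63 to 13.1 CPM in KO livers (log2 fold change -2.30 ± 0.45, adjusted p = 0.00354), and Nlrp6 from 101 to 195 CPM to 28.3 to 75.8 CPM (-1.35 ± 0.28, adjusted p = 0.00336). No KO liver overlapped the controls for either of these.

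Of 13 genes of membrane rupture and repair, 9 had enough counts to be tested, with 3 higher, 2 lower and a median log2 fold change of 0.09. The annexin genes Anxa2 (2.20 ± 0.31, SE, edgeR adjusted p = 0.000399) and Anxa1 (1.09 ± 0.19, adjusted p = 0.000751), whose products bind damaged membranes, and Vps4a (0.28 ± 0.09, adjusted p = 0.0284), which encodes the ATPase of the ESCRT-III machinery, rose. Gsdme, the gasdermin cleaved by caspase-3, fell from 11.8 to 14.4 CPM in controls to 4.97 to 6.78 CPM in KO livers (-1.20 ± 0.12, adjusted p = 1.36e-05). Gsdme and Gsdmd, 2 members of the same pore-forming family, thus went opposite ways. The ESCRT-III subunit gene Chmp3 also fell (-0.32 ± 0.08, adjusted p = 0.00855). The small differences of Vps4a and Chmp3 lost their call in 6 and 3 of the 19 alternative fits, that of Vps4a without any single WT Cre liver or KO 4. The 4 genes not tested were the gasdermin genes Gsdma, Gsdmc, Gsdmc2 and Gsdmc3.

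Of 13 genes of the interleukin 1 family, 8 were higher and 2 lower, with a median log2 fold change of 1.09. Only 5 of the 13 were higher against WT Cre and 5 against MCS. Among the 8 were 3 of the 4 inhibitors and 3 of the 4 cytokines. The receptor antagonist gene Il1rn rose by 2.86 ± 0.60 (log2, SE, edgeR adjusted p = 0.00551), the alarmin gene Il33 by 2.82 ± 0.28 (adjusted p = 1.92e-05) and the decoy receptor gene Il1r2 by 2.52 ± 0.87 (adjusted p = 0.0408, 64 counts over the 10 libraries). The groups overlapped for Il1rn (lowest KO liver 6.78 CPM, highest control 8.66 CPM) and Il1r2 (0.130 and 0.503 CPM). The call of Il1r2 was lost in 11 of 17 alternative fits, 8 of which left out a single library. Il33 was 1.40 to 2.33 CPM in controls and 6.58 to 22.4 CPM in KO livers. The shared receptor chain Il1rap fell from 151 to 212 CPM to 55.2 to 115 CPM (-1.08 ± 0.19, adjusted p = 0.000735), and Sigirr, an inhibitory receptor, by less (-0.62 ± 0.16, adjusted p = 0.00727).

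Of 24 genes of the apoptosis machinery, 10 were higher and 2 lower, with a median log2 fold change of 0.35, and 8 of the 10 belonged to the 15 BCL2 family genes. Bcl2a1b, a survival member with near-identical copies that could share its reads, rose by 2.65 ± 0.41 (log2, SE, edgeR adjusted p = 0.000345). Pmaip1 (1.94 ± 0.32, adjusted p = 0.000534) and Bcl2l11 (1.30 ± 0.24, adjusted p = 0.00145), which encode the death-promoting NOXA and BIM, rose too. The executioner caspase gene Casp6 fell (-1.30 ± 0.16, adjusted p = 5.38e-05), as did the survival gene Bcl2l2 (-0.31 ± 0.11, adjusted p = 0.0442), although the latter lost its call in 14 of 19 alternative fits, 8 of which left out a single library. Set beside the 19.7% of all genes called higher, the shares called higher were 25.0% for death receptor signalling, 64.0% for inflammasome sensors, 33.3% for membrane rupture and repair, 61.5% for the interleukin 1 family (38.5% against either kind of control alone) and 41.7% for the apoptosis machinery, without a test of these shares. Beside the 16.6% of all genes called lower, the shares called lower were 7.14%, 16%, 22.2%, 15.4% and 8.33% in the same order.

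**Figure D4:**
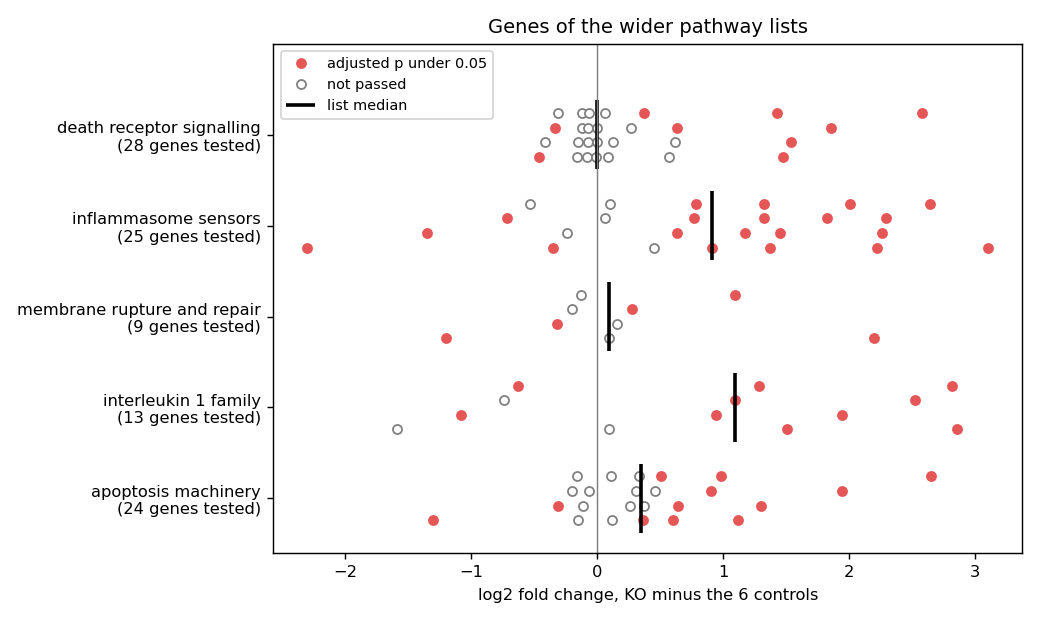
Log2 fold change, KO minus the 6 controls, of each tested gene in 5 lists; red points passed an adjusted p of 0.05, open points did not, and the black line is the list median. The medians of the inflammasome (0.91) and interleukin 1 (1.09) lists lie right of zero, and that of the death receptor list (-0.0028) lies at it.

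Markers of several other liver cell types were also higher in KO livers, while most endothelial and cholangiocyte markers did not pass the test. All 10 Kupffer cell markers were higher in KO livers, where 19.7% of all genes were. Their summed level was 229 to 431 CPM in controls and 531 to 1172 CPM in KO livers. Of 10 markers of monocytes and recruited macrophages 9 were higher (summed level 91.2 to 120 CPM against 170 to 294 CPM), and of 10 markers of T and NK cells 9 (2.25 to 5.76 CPM against 5.60 to 26.5 CPM). The sum over neutrophil markers was 3.46 to 14.4 CPM in controls and 6.26 to 29.2 CPM in KO livers, with Ly6g and Camp near 0 in every library (at most 1 and 2 counts). Of the 6 neutrophil markers tested, 4 were higher (3 against WT Cre, 1 against MCS).

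B and plasma cell markers summed to 32.3 to 64.3 CPM in controls and 108 to 147 CPM in KO livers, and 4 of 7 were higher (2 against WT Cre, 6 against MCS). Stellate cell markers (7 of 8 higher) summed to 113 to 135 CPM and 256 to 363 CPM, and cholangiocyte markers (1 of 6 higher) to 7.69 to 11.9 CPM and 16.1 to 26.4 CPM. Endothelial markers (1 of 7 higher) overlapped, at 184 to 236 CPM and 199 to 360 CPM. The hepatocyte markers defined the tissue as liver in every library, and 7 of their 10 genes were lower in KO livers, with sums of 108771 to 155073 CPM in controls and 82792 to 96747 CPM in KO livers. Against the 6 controls, 16.6% of all genes were lower. Against WT Cre 3 of these 10 were lower and against MCS 8, where 2939 and 3312 of all 22449 genes were. The part of any of these cell types in the levels of the 10 genes was not tested. By a two-sided exact permutation test over 210 splits, the sums differed for 8 of the 9 lists (Benjamini-Hochberg adjusted p = 0.00714 for 6 lists and 0.0107 for the neutrophil and T and NK cell lists), and for endothelial markers the adjusted p was 0.0524. For the 6 lists the unadjusted permutation p was 0.00476, the smallest that 210 splits allow.

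**Figure D5:**
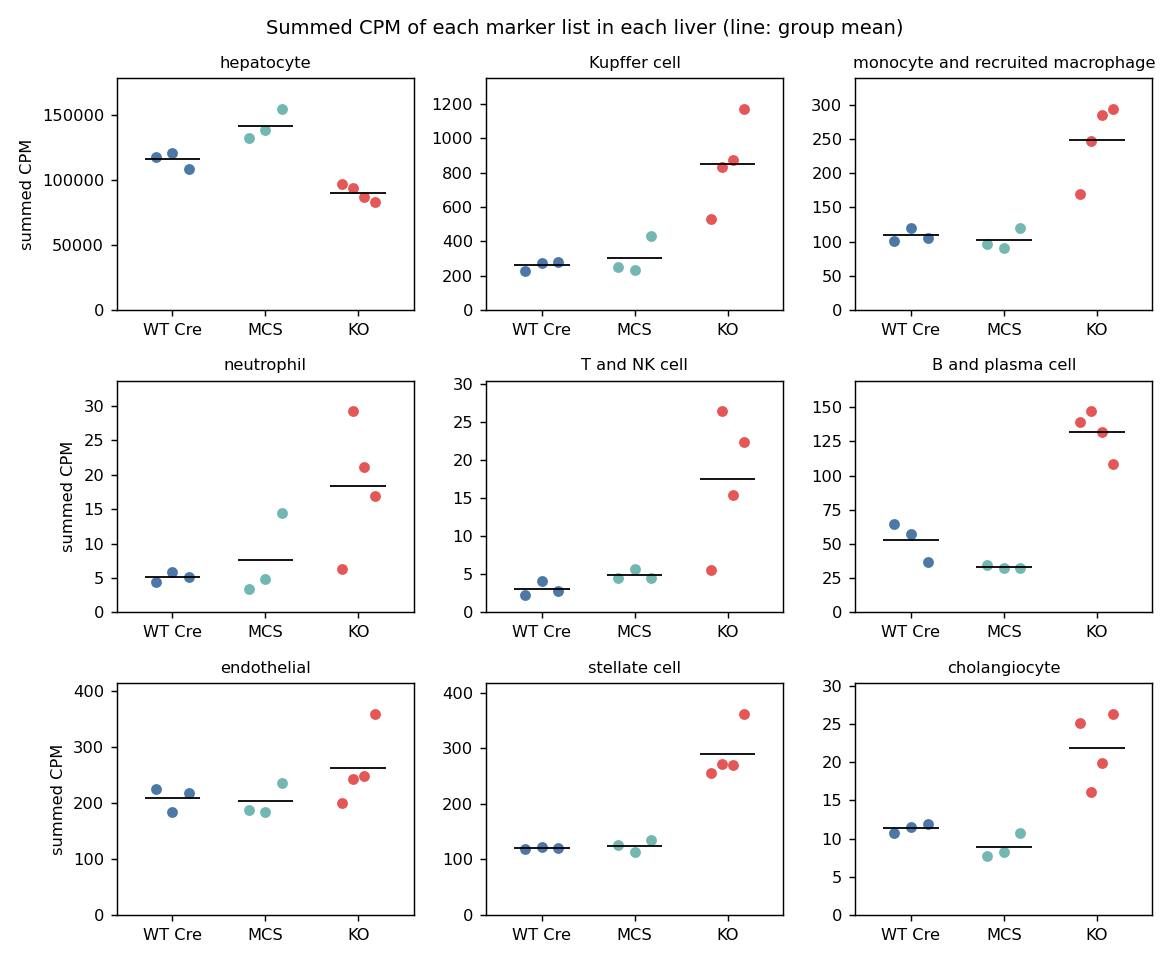
Summed CPM of 9 lists of cell type markers in each liver (points) with group means (lines). The Kupffer cell sum was 229 to 431 CPM in controls and 531 to 1172 CPM in KO livers, and MCS 3 is the highest control for Kupffer cell and neutrophil markers.

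The levels of the 10 genes were also expressed as a percentage of a marker sum in the same liver, which needs no scaling between libraries. On this scale 49.2% of all genes were lower in every KO liver than in any control for the Kupffer cell sum, 49% for the monocyte and recruited macrophage sum and 36.7% for the T and NK cell sum, and 1.23%, 2.09% and 0.695% were higher in every KO liver. Ripk1 and Casp8 were lower in all KO livers relative to each of the 3 sums (relative to the Kupffer cell sum, 11.4% to 15.4% in controls and 3.27% to 5.99% in KO livers for Ripk1, and 7.81% to 13.1% and 3.35% to 4.77% for Casp8), and Mlkl overlapped for each. Relative to the Kupffer cell sum, Ripk3 was 0.272% to 0.656% in controls and 0.352% to 0.454% in KO livers, and Nlrp3 0.211% to 0.401% and 0.258% to 0.458%. These ranges overlapped, unlike the CPM of both genes. Of the 7 genes higher in KO livers, 6 overlapped on this scale and Casp1 was lower in all KO livers (0.673% to 0.983% in controls, 0.457% to 0.663% in KO livers). Relative to the sum over monocyte and recruited macrophage markers, 6 of the 7 overlapped and Zbp1 was higher in all KO livers, at 5.06% to 16.3% in controls and 20.6% to 30.9% in KO livers. That sum was mostly Lyz2, Spp1 and Cd9 (control means of 38.6, 39.3 and 23.1 CPM, of 106 CPM in all). Spp1, which the study listed among its cholangiocyte markers, did not pass the test (log2 fold change 0.22, edgeR adjusted p = 0.263). The median log2 fold change of the 10 markers was 2.65, close to the 2.64 of Zbp1. The result for Zbp1 thus refers to this sum and not to each of its markers. Relative to the T and NK cell sum, all 7 overlapped.

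The genes whose pattern over the 10 libraries was closest to each member were found by the root mean square difference of log2 CPM centred per gene, which depends on both the size and the shape of the difference. For Ripk3 they were Frzb, Lpcat2 and Col6a1 (differences of 0.108 to 0.159), and for Nlrp3 Bin2, Stx11 and Ticam2 (0.150 to 0.169). For Casp4 they were Clca3a1, Ccrl2 and Dok3 (0.147 to 0.163), for Casp1 Apaf1, Nin and Cdca8 (0.126 to 0.155), for Pycard Matn2, B9d1 and Kif15 (0.165 to 0.202) and for Gsdmd Pygm, Nop16 and Psmb10 (0.112 to 0.118). The closest genes to Zbp1 were Cd177, Cyp3a63-ps and Atf3, and at 0.354 to 0.375 they were farther from it than the closest genes of any other member were from theirs. Cd177 and Cyp3a63-ps had control means of only 0.0659 and 0.206 CPM, and log2 fold changes of 3.98 and 3.02. The log2 CPM used a prior count of 2, which shrinks differences at such low counts. For Mlkl the closest were Peg3, Ikbip and Slc35d1 (0.185 to 0.207), for Ripk1 Zfp955b, Pcf11 and Ube2w (0.0982 to 0.113) and for Casp8 Atf2, Otud4 and Trim39 (0.0800 to 0.0817).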

How the data were processed

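Poly(A) RNA-seq libraries (NEBNext Ultra II Directional kit) of 10 male mouse livers were analysed from the deposited gene table. Per the study's methods, the authors trimmed reads, aligned them with STAR to mm10 and counted with HOMER, while the submitters' processing notes name STAR, HTSeq and Cufflinks, so the counter and its use of strand are not settled. The deposited counts are raw whole reads per gene (14998426 to 26096141 per liver). The deposited FPKM are the authors' values scaled to gene length and depth.

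Genes with fewer than 10 counts in all were dropped (22449 left). Counts were fitted with edgeR 4.0.16 (R 4.3.3, TMM, robust quasi-likelihood), KO against the 6 controls in a fit of 2 groups and the other comparisons in a fit of 3 groups. The p-values were adjusted by Benjamini-Hochberg over all genes and called under 0.05. CPM used TMM-scaled library sizes. In simulated KO against control data of 22449 genes, 75.2% of genes changed by a log2 of 1 and 94.7% of those changed by 2 were called. Of the calls, 5.59% were false. No changed gene was drawn from those with low counts, so these shares do not cover such genes. The simulation changed 105 genes by 1 and 95 by 2, up or down at random, far fewer than were called in the data. The shares were thus not measured at the fraction of changed genes seen here. The alternatives were other scalings and filters, DESeq2 1.42.0, limma 3.58.1 (voom, and on log2 of FPKM plus 1 or 0.1), a replicate block and each library left out. The labels give replicate numbers and no further word on litters or days, so p-values measure the spread between these samples. No pair of libraries agreed within counting noise (chi-square per degree of freedom of at least 10.3).

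Gene coordinates and exon lengths are from GENCODE M21 (mm10). Named genes were the 10 members, the targeted genes and, in each of 5 lists, the 3 largest rises and 2 largest falls among called genes. Members and lists were chosen with earlier results of these data known.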

Additional observations from a re-analysis of the deposited data

Results flagged for a closer look

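In 38 sets of values (10 genes and 9 marker sums, each in the 4 KO livers and in the 6 controls), the most extreme liver was compared with its nearest neighbour by Dixon's gap criterion at the 95% level, which chance meets in about 1 in 20 sets. It was met in 6. Ripk1 was 52.7 CPM in MCS 3 and at most 35.7 CPM in the other controls. Zbp1 was 19.6 CPM in WT Cre 2, with the next control at 10.3 CPM. Nlrp3 was 1.37 CPM in KO 1, with the next KO liver at 3.54 CPM. The Kupffer cell marker sum was 431 CPM in MCS 3 against 281 CPM in the next control, and the neutrophil marker sum 14.4 CPM in MCS 3 against 5.81 CPM. The stellate cell marker sum was 363 CPM in KO 4, with the next KO liver at 272 CPM. MCS 3 accounted for 3 of the 6.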

How the results depend on the processing

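Under 19 alternative fits, the 7 genes called higher against the 6 controls kept their call and direction (7 to 8 genes called higher, none lower). Of the genes past a log2 fold change of 1, 5 became 1 against the 6 controls, 5 became 2 against WT Cre and 7 became 2 against MCS with limma on log2(FPKM + 1), when the shares of all genes went from 12.9% to 4.22%, from 10.6% to 3.62% and from 11.9% to 4.87%, a scale that shrinks low genes by construction. Leaving out 1 library gave 4 (without KO 2, when 10.7% of all genes passed) to 7 of these against MCS. Library size only shifted the median over all genes to 0.17 on the log2 scale and the share of calls that were higher from 54.3% to 72.2%. It gave 11 higher genes in death receptor signalling instead of 7, when 5635 of all 22449 genes were called higher instead of 4429. Fewer genes than in the report were called in some fits for death receptor signalling (0 to 1 lower instead of 2), membrane rupture (1 lower instead of 2), the interleukin 1 family (5 higher instead of 8) and the apoptosis machinery (1 lower instead of 2). The cause was not tested. Marker sums kept their direction with library size only, and the endothelial log2 ratio rose to 0.54 (exact permutation p = 0.0143), an alternative chosen after seeing the data.

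The replicate numbers did not pair the livers: deviations of libraries with the same number correlated at -0.17 to 0.22 (median 0.085) and those with other numbers at -0.29 to 0.35. A replicate block called 7, 7 and 8 genes higher against the 6 controls, WT Cre and MCS, and 3543 of all genes higher instead of 4429. Between the kinds of control, the replicate block and DESeq2 each called 1 gene higher, Zbp1 (log2 0.89 and 0.96), where edgeR called none.

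The sign turned only for values that passed no test. Against the 6 controls, Ripk1 was 0.098 with library size only, 0.12 and 0.14 on FPKM with pseudocounts of 1 and 0.1, and ranged from -0.18 to 0.053 with 1 library left out. Casp8 was -0.083 with the replicate block and ranged from -0.080 to 0.16, and Hira was 0.036 with library size only and 0.076 and 0.091 on FPKM. Against WT Cre, Ripk1 ranged from -0.0036 to 0.15 with 1 library left out, and Casp8 was -0.027 with the replicate block and ranged from -0.034 to 0.22. Against MCS, Ripk1 was 0.0075 with library size only, 0.070 and 0.080 on FPKM, and ranged from -0.42 to 0.0066, while Casp8 was -0.14 with the replicate block and ranged from -0.12 to 0.11. For WT Cre against MCS, Casp8 was 0.037 with library size only and 0.041 and 0.044 on FPKM, Nlrp3 was -0.042 and -0.17 on FPKM, -0.0080 with the replicate block and -0.26 to 0.41 with 1 library left out, Casp1 ranged from -0.10 to 0.35, and Casp4 was 0.0067 and 0.056 on FPKM and ranged from -0.47 to 0.15. Counts limit the low genes most, with 11 to 36 per control library for Ripk3, Nlrp3 and Pycard.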
